A study of Mus musculus with 5 samples.

Results

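Hepatic and yolk sac secreted protein genes encode the plasma proteins that hepatocytes and, earlier in development, the visceral endoderm of the yolk sac release. The set is a list of 10 genes given by name: the carrier protein genes Ttr, Rbp4, Trf, Alb and Afp, the apolipoprotein genes Apoa1, Apoa2, Apob and Apoe, and the fibrinogen gene Fgb. A gene was taken from every probe set that the platform annotation ties to its symbol alone, with the probe set of the highest mean signal as its main one. By this rule 9 of the 10 genes, out of 18193 genes on the array, had a value, on 20 probe sets. Trf, which encodes the iron carrier transferrin, had no probe set of its own. Its 1 probe set also carries the symbol Srprb and lay between 2.34 and 5.27 on the 5 arrays, so Trf enters no count.

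The samples were cells derived from mouse embryonic stem cells by differentiation on gelatin-coated plates, aimed at the pancreatic lineage. Cells given 2 µM MPA at day 5 were collected at day 6, after 1 day of exposure, and at day 8, after 3 days, and cells without MPA (the controls) at days 5, 6 and 8. The labels do not write MPA out, name no stem cell line and give no genotype. Each of the 5 groups had 1 Affymetrix array, so no value has a spread between cultures, a difference of 2 arrays has no test, and the number of arrays limits the precision. In such bulk cultures, fewer cells of a type and less RNA per cell cannot be told apart.

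These genes are classic markers of hepatic and visceral endoderm fate. Their promoters are bound by a network of liver-enriched transcription factors (the HNF1, HNF4, FOXA, GATA and C/EBP families), and Afp and Ttr are among the first of them to appear in the embryo, while Alb marks later hepatoblasts and hepatocytes. Ttr and Rbp4 proteins circulate as a complex that carries retinol, and Ttr also carries thyroxine. The apolipoproteins give lipoprotein particles their structure: Apob forms the body of very-low-density lipoprotein, Apoa1 and Apoa2 that of high-density lipoprotein, and Apoe, made by many cell types besides hepatocytes, guides the uptake of remnants.

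The 250 bases before annotated starts are shown for Rbp4, the member that was high beside MPA at day 6 and has a sequence in the table used, and for Afp, Alb and Fgb, whose signals stayed at or near the floor described further on. They come from RefSeq (GRCm38.p6), run 5′ to 3′ on the gene's strand and end at the base before the start. Capitals mark matches to 5 motifs. TGTTTAC, a core of FOXA sites, GTTAAT, a core of HNF1 sites, AGATAA, for which the GATA family is known, and CAAAGTCCA, a form bound by HNF4, were searched on both strands. TATAAA, as in core promoters, was searched on the gene's strand only.
Rbp4, chr19:38125322-38125571, minus strand: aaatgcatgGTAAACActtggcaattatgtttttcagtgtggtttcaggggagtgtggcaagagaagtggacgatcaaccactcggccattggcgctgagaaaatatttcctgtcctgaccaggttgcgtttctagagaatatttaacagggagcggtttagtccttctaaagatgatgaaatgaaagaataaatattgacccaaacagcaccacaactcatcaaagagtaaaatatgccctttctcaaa
Rbp4, chr19:38124812-38125061, minus strand: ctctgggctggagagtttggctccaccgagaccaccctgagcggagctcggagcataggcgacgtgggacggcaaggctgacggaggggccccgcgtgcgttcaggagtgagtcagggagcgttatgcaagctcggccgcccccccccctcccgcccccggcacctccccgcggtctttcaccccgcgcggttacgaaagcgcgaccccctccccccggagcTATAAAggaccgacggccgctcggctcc
Afp, chr5:90490464-90490713, plus strand: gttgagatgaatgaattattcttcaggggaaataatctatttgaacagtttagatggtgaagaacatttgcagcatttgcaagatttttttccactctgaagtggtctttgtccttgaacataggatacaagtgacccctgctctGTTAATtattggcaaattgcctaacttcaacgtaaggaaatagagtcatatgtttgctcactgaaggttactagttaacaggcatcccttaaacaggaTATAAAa
Alb, chr5:90460620-90460869, plus strand: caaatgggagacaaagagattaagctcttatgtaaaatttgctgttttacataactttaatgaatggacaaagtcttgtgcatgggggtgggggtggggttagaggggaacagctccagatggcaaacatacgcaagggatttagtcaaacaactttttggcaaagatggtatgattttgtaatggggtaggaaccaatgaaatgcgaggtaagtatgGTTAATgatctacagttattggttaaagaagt
Fgb, chr3:83049864-83050113, minus strand: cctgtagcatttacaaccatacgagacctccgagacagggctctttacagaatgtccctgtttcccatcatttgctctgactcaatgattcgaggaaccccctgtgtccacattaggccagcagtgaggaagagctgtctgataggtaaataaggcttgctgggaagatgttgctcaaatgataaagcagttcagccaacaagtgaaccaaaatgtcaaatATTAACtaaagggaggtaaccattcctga

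The sequence table held 12 such windows for 8 of the genes, Rbp4 with 2 starts. The HNF1 core occurred in 4 of the 12 windows, of the genes Afp, Alb, Fgb and Apoe, against 6.43% of all 32851 windows. It began at position -105 in Afp, -32 in Alb and -29 in Fgb. The FOXA core occurred in 1 window each of Apoa2 and Rbp4 (position -241, the upstream start), against 3.17% of all windows. The TATAAA motif occurred in 5 of the 12 windows, against 7.59% of all windows. It began at position -28 in Rbp4 (the downstream start), -7 in Afp, -60 in Apob, -96 in Apoe and -212 in Apoa2. The motifs of the GATA family and of HNF4 occurred in 0 of the 12 windows, against 9.99% and 0.384% of all windows. A match is a run of letters and not a site shown to be used.

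Signals are the authors' linear array intensities. Values under 86.8, the median of all probe sets other than controls, were raised to that floor before folds were taken. A comparison includes a gene if 1 or both of its arrays exceed the floor, a fold with the other array at the floor is written "at least", and none is given with both at the floor. The share of probe sets over the floor ran from 46.7% to 51.9% across the arrays. Gapdh, read at both ends of its transcript to judge RNA integrity, had a 3′ to 5′ ratio of 1.31 and 1.57 with MPA at days 6 and 8, against 1.08, 1.19 and 1.55 in controls at days 5, 6 and 8, and its part in the differences between days was not tested.

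Only a few of the hepatic genes had clear signals in these cultures. Of the 9 genes, Apoe and Rbp4 lay above the floor on all 5 arrays and Ttr on 4, while Fgb lay above it on 0 arrays. The other 5 genes, Alb, Afp, Apoa1, Apoa2 and Apob, exceeded it on 1 to 3 arrays each, with main signals of at most 181. Over all genes, 49.97% lay above the floor on all 5 arrays and 21.1% on none. Other cell types also make Apoe, and the hepatic markers Alb and Afp were at most 1.23-fold and 1.38-fold over the floor on their main probe sets, so these values do not by themselves bear out a hepatic or yolk sac name for the cells.

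**Figure D1:**
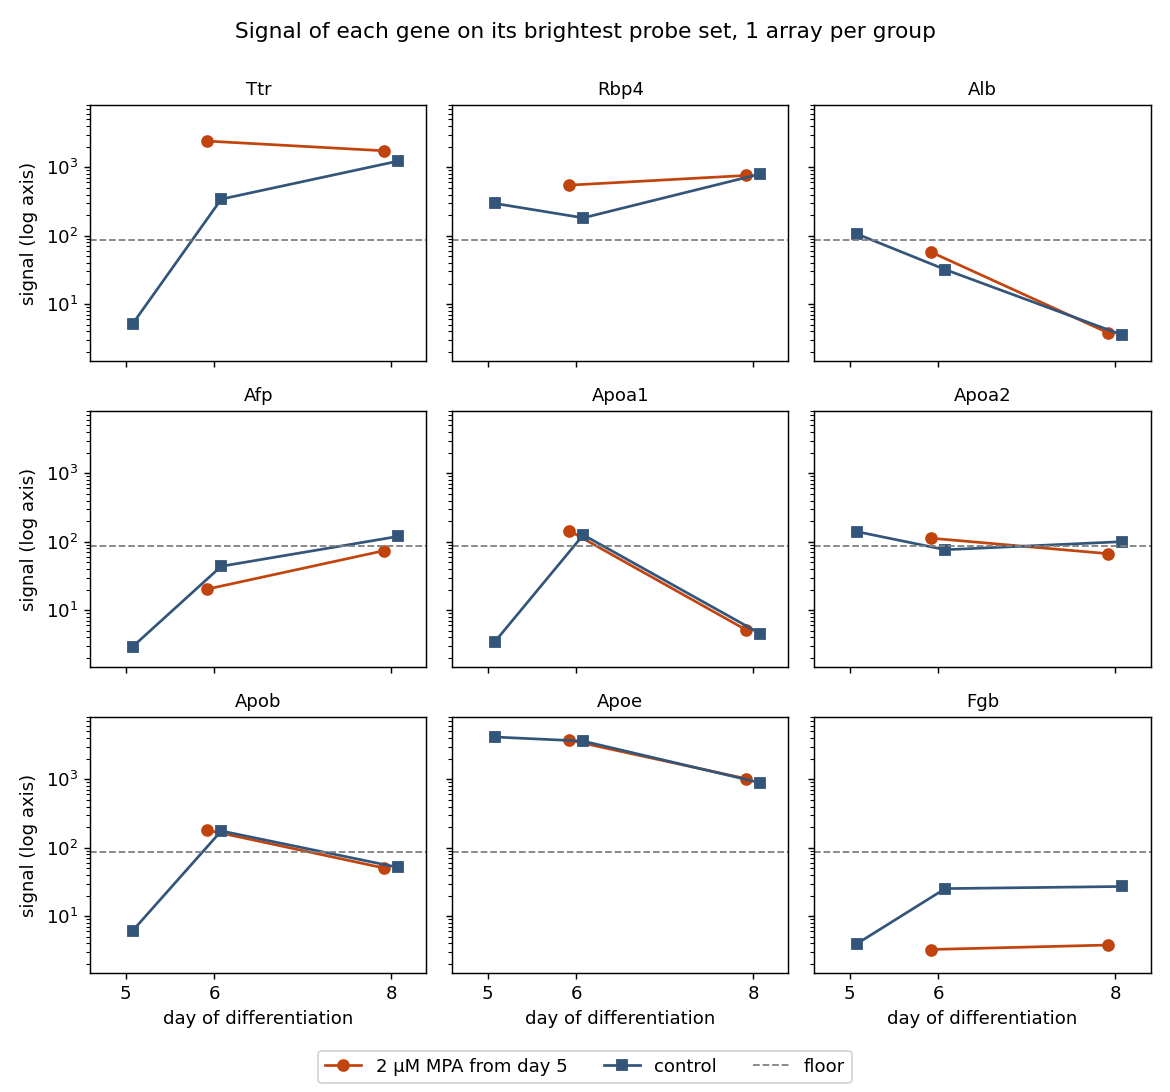
Signal (log axis) of the 9 genes on their main probe sets against day of differentiation, with MPA (circles) and control (squares), 1 array per point, and the floor as a dashed line. Ttr with MPA at day 6 (2415) lies well above its control (342), Apoe is lowest on both day 8 arrays (1022 and 890), and Fgb stays under the floor throughout.

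Ttr, the gene of transthyretin, gave the largest differences of the set. Its signal was 2415 and 1742 with MPA at days 6 and 8, against 5.19, 342 and 1234 in the controls at days 5, 6 and 8. It was thus under the floor at day 5, higher on every later array, and highest after 1 day of MPA. With MPA it was 7.06-fold higher than in the control at day 6, a log2 difference of 2.82 that ranked 4 from the top among 12240 measured genes. At day 8 the signal was 1.41-fold higher with MPA (log2 difference 0.50), a difference that 14.5% of 12599 measured genes equalled or exceeded.

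In the controls the Ttr signal of day 6 exceeded that of day 5 by at least 3.94-fold, and that of day 8 exceeded day 6 by 3.61-fold. Across the whole interval, day 8 exceeded day 5 by at least 14.2-fold on the main probe set and by at least 3.01-fold, 5.24-fold and 8.54-fold on the others. These bounds move with the floor and the probe set rule: over the alternatives the log2 difference ran from 0.96 to 4.54 for day 6 minus day 5 and from 2.73 to 6.39 for day 8 minus day 5. With MPA the course was different: day 8 was 1.39-fold lower than day 6. The courses came closer at day 8, with the MPA array still the higher one.

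Ttr has 4 probe sets, which share the transcript and are not independent measurements. At day 6 all 4 were higher with MPA, by 7.06-fold on the main one and by 4.84-fold, 10.7-fold and at least 8.33-fold on the others. At day 8 all 4 were again higher with MPA, but by less, from 1.10-fold to 1.99-fold. Between days 6 and 8 all 4 were higher at day 8 in the controls, and all 4 were lower at day 8 with MPA, by 1.21-fold to 2.81-fold. None of the 4 was above the floor at day 5, where they read 2.11 to 5.81. The suffixes mark probe sets that can match more than 1 transcript, and Ttr has no probe set without one.

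**Figure D2:**
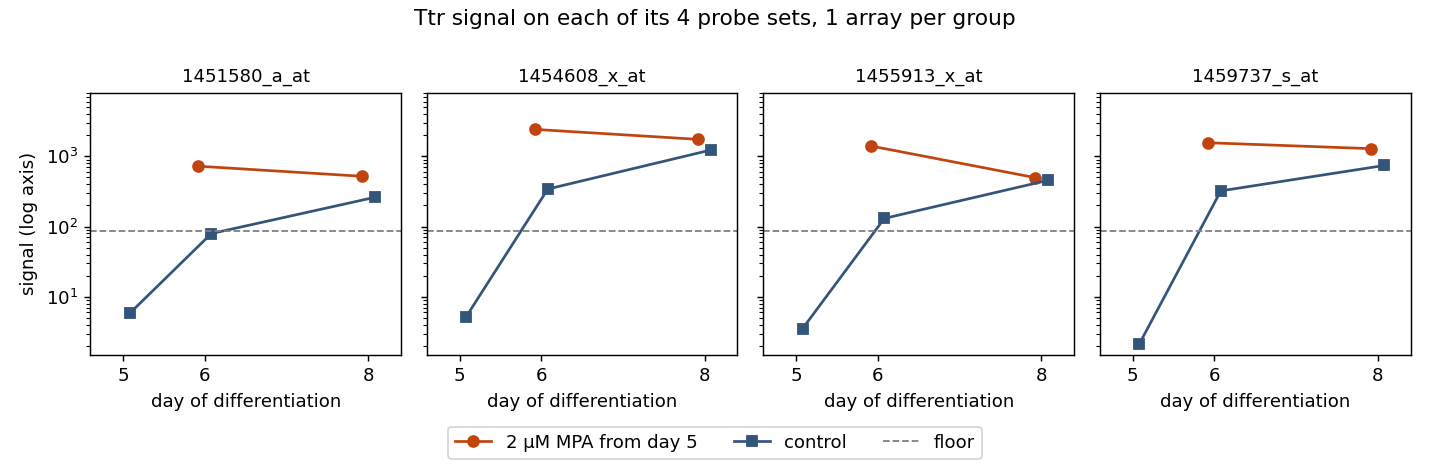
Ttr signal (log axis) on each of its 4 probe sets against day, with MPA (circles) and control (squares), 1 array per point, and the floor as a dashed line. On every probe set the MPA point lies above the control at day 6 and the control line climbs to day 8 while the MPA line declines.

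Rbp4, which encodes the retinol-binding protein that travels with transthyretin, differed at the same day. Its signal was 548 and 759 with MPA at days 6 and 8, against 297, 182 and 797 in the controls at days 5, 6 and 8. It was lowest in the day 6 control and about equal on the 2 arrays of day 8. MPA at day 6 stood 3.004-fold above its control (log2 difference 1.59, rank 84 of 12240), and MPA at day 8 was 1.05-fold lower than its control. In the controls Rbp4 was 1.63-fold lower at day 6 than at day 5, and day 8 exceeded day 6 by 4.37-fold. With MPA, day 8 was 1.39-fold higher than day 6. Rbp4 has 1 probe set, so its course has no second reading on these arrays.

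Alb and Afp, genes of the albumin family that lie side by side on chromosome 5, encode the main plasma proteins of adult and fetal life. Alb read 57.6 and 3.81 with MPA at days 6 and 8, against 106, 32.0 and 3.55 in the controls at days 5, 6 and 8. It exceeded the floor only in the day 5 control, so that the day 8 control was at least 1.23-fold lower. Afp read 20.3 and 74.0 with MPA, against 2.94, 43.8 and 120 in the controls. It exceeded the floor only in the day 8 control, which was at least 1.38-fold higher than the day 5 and day 6 controls and than MPA at day 8. Of the 5 Afp probe sets, 3 lay above the floor in the day 8 control (114 to 132), 1 in MPA at day 8 (90.9) and 1 on no array. At day 8 the measured ones did not share a direction, with 3 lower and 1 higher beside MPA.

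Among the apolipoprotein genes, Apoe had clear signals that differed by day and little between MPA and control. Its signal was 3734 and 1022 with MPA at days 6 and 8, against 4149, 3614 and 890 in the controls at days 5, 6 and 8. Both day 8 arrays were lower than the 3 earlier ones. Day 8 was 4.06-fold lower than day 6 in the controls and 3.65-fold lower with MPA, and the day 8 control was 4.66-fold lower than day 5. MPA and control differed by 1.03-fold at day 6 and 1.15-fold at day 8, MPA being higher both times. Apoe has 1 probe set. Macrophages and glia also make Apoe. Of 10 macrophage markers, 7 were above the floor on no array (21.1% of all genes), while 3 exceeded it on some. Csf1r, 1 of the 3, read 94 and 321 with MPA at days 6 and 8. In controls it read 100, 35 and 135 at days 5, 6 and 8. The part of macrophages and glia in the Apoe signal was not tested.

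Apob and Apoa1, structural apolipoproteins of hepatocytes and gut epithelium, were above the floor on both day 6 arrays only. Apob read 181 and 50.5 with MPA at days 6 and 8, against 6.16, 176 and 51.5 in the controls at days 5, 6 and 8. Day 6 was at least 2.03-fold higher than day 5 and than day 8 in the controls, and with MPA day 8 was at least 2.08-fold lower than day 6. MPA and control were 1.03-fold apart at day 6. Its other probe set lay above the floor on no array. Apoa1 read 145 and 5.16 with MPA, against 3.45, 126 and 4.54 in the controls, a 1.15-fold higher signal with MPA at day 6. Its 4 probe sets were all higher with MPA than without at day 6, by 1.02-fold to 1.69-fold with both ends of the range as lower bounds, and all 4 were under the floor at day 8. On their main probe sets both genes thus had a weak signal at day 6 only, with and without MPA. Without MPA at day 6, the other Apoa1 probe sets read 31.6, 57.0 and 88.0, under the floor or close to it. For both genes the signal without MPA therefore rests mainly on 1 probe set and 1 array.

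Apoa2 stayed close to the floor throughout. It read 113 and 66.9 with MPA at days 6 and 8, against 140, 76.4 and 100 in the controls at days 5, 6 and 8, on 1 probe set. MPA exceeded its control by at least 1.30-fold at day 6 and lay at least 1.16-fold below it at day 8. Fgb, the fibrinogen beta chain gene, read 3.26 and 3.79 with MPA, against 3.95, 25.3 and 27.2 in the controls, and gets no fold. Signals of this size cannot be told from empty ones: trpnX, a bacterial control that the cells lack, read up to 59.4.

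Counted together, 2 of the 6 genes measured at day 6 were at least 2-fold higher with MPA, Ttr and Rbp4, where 4.02% of all measured genes were, and 0 were 2-fold lower (3.15% of all). At day 8, 0 of 5 were 2-fold higher (3.72% of all) and 0 were 2-fold lower (3.18%). The median log2 difference was 0.29 at day 6 and -0.07 at day 8, against 0.02 and -0.02 over all measured genes. Control day 6 against day 5 had 2 of 7 at least 2-fold higher, Ttr and Apob (5.46% of all), and 0 lower (4.4%), with a median of -0.20 against 0.02. For control day 8 against day 6, 2 of 7 were 2-fold higher, Ttr and Rbp4 (7.07% of all), and 2 were lower, Apoe and Apob (6.43%), with a median of 0.21 against 0.02. Day 8 against day 5 had 2 of 6 higher, Ttr and Rbp4 (9.61% of all), and 1 lower, Apoe (7.27%), with a median of 0.09 against 0.04. With MPA, day 8 against day 6 had 0 of 6 higher (7.64% of all) and 2 lower, Apoe and Apob (7.64%), with a median of -0.61 against -0.03. A gene near the floor enters these counts only through the array where it is bright, so the counts and medians describe the genes named and do not speak for the set, and several of the comparisons share arrays.

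**Figure D3:**
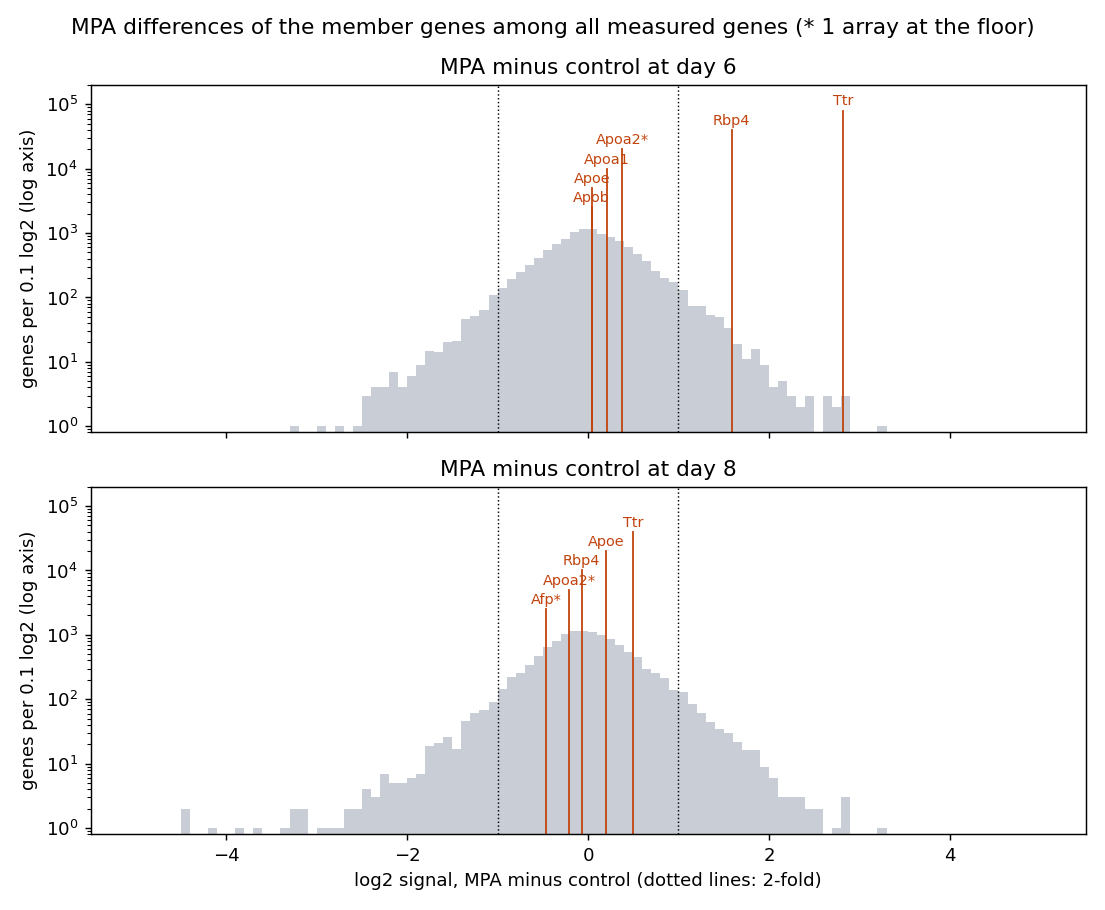
Histograms of the log2 signal difference, MPA minus control, over all measured genes at day 6 (top, 12240 genes) and day 8 (bottom, 12599 genes), with gene counts on a log axis and the measured hepatic and yolk sac genes as lines. Ttr (2.82) and Rbp4 (1.59) lie beyond the 2-fold line at day 6, and at day 8 all 5 lines lie within it.

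A test across the arrays asked for an MPA difference that is alike at both days, in a limma fit of the MPA and control arrays of both days (4 arrays, a day factor, 1 residual degree of freedom). Of 11599 genes tested, 1 (0.00862%) passed at an adjusted p under 0.05, and of the 6 hepatic and yolk sac genes tested 0 did. Ttr had a mean log2 difference of 1.66 (SE 0.57, unadjusted p 0.0322, limma adjusted p 0.730), higher with MPA at 2 of 2 days. It was the 1 gene of the 6 at an unadjusted p under 0.05, where 6.37% of all genes were. Rbp4 had a mean difference of 0.76 (SE 0.43, limma adjusted p 0.823), higher at 1 of 2 days. The means of Apoe, Apoa1, Apoa2 and Apob were 0.12, 0.10, 0.08 and 0.02, with limma adjusted p from 0.966 to 0.995. In this fit a change of the MPA difference from one day to the other is error, and Ttr and Rbp4 differed chiefly at day 6.

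The same fit gave a test of day 8 against day 6 over MPA and control, chosen after the values were seen. Of the 11599 genes, 670 (5.78%) passed at a limma adjusted p under 0.05, and Apoe was the 1 hepatic and yolk sac gene of 6 that did. Its mean log2 difference was -1.95 (SE 0.22, limma adjusted p 0.00235), lower at day 8 in 2 of 2 pairs of arrays. That call was lost without the trend and robust options (limma adjusted p 0.0585), without the filter (0.913) and with probe set means (0.0572). Rbp4 had 1.30, Apob -1.04, Apoa1 -0.64, Ttr 0.69 and Apoa2 -0.08, with limma adjusted p of 0.117, 0.111, 0.269, 0.552 and 0.903. With Apoe, Rbp4 and Apob made up the 3 of 6 at an unadjusted p under 0.05, where 21.9% of all genes were.

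Transcription factor genes of the hepatic programme mostly read higher with MPA, some of them near the floor. All 17 of the listed genes with a probe set exceeded the floor on some array, while 21.1% of all genes did so on none. At day 6, 13 of 17 measured ones were higher with MPA. Of these, 2 were at least 2-fold higher (4.02% of all genes) and 0 of the 17 were 2-fold lower (3.15%), with a median log2 difference of 0.59 against 0.02 over all genes. At day 8, 13 of 16 were higher, 3 of them 2-fold (3.72% of all), and 0 were 2-fold lower (3.18%), with a median of 0.50 against -0.02. Some genes enter through 1 array alone, which fixes their direction. At day 6 such genes included Cebpa, Prox1 and Zbtb20 through the MPA array and Onecut1 through the control. At day 8 they were Foxa3, Gata4 and Zhx2 through the MPA array, and Hnf4a, Nr1h4 and Nr5a2 through the control. Foxa1, a pioneer factor of endoderm, read 4076 and 9593 with MPA at days 6 and 8, against 490, 2705 and 4339 in the controls at days 5, 6 and 8, which was 1.51-fold and 2.21-fold higher. Its relative Foxa2 read 2236 and 3635 with MPA, against 5711, 1378 and 1884 in the controls, and was 1.62-fold and 1.93-fold higher. Hhex read 358 and 192 with MPA, against 1114, 260 and 121 in the controls, and was 1.38-fold and 1.59-fold higher. Foxa2 and Hhex thus lay below their day 5 control on every later array, with and without MPA.

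Tbx3, which helps the liver bud to expand, read 1125 with MPA at day 6, against 468 in the control, and was 2.40-fold higher, while at day 8 it was 1.105-fold higher. Onecut2, of the HNF6 family, was 1.82-fold and 2.41-fold higher, and Prox1, needed for hepatoblast migration, at least 1.97-fold and 2.105-fold higher. Zbtb20, a repressor of Afp in mouse liver, exceeded its control by at least 2.02-fold at day 6 and by 1.25-fold at day 8. Hnf4a, a central activator of many of the hepatic secreted protein genes, stayed near the floor, with 108 and 86.2 with MPA at days 6 and 8, against 132, 109 and 99.1 in the controls at days 5, 6 and 8. Its log2 difference, MPA minus control, was -0.01 at day 6 and -0.19 at day 8, where the MPA array was at the floor. Cebpa, a hepatocyte factor, exceeded the floor only with MPA at day 6 (102).

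**Figure D4:**
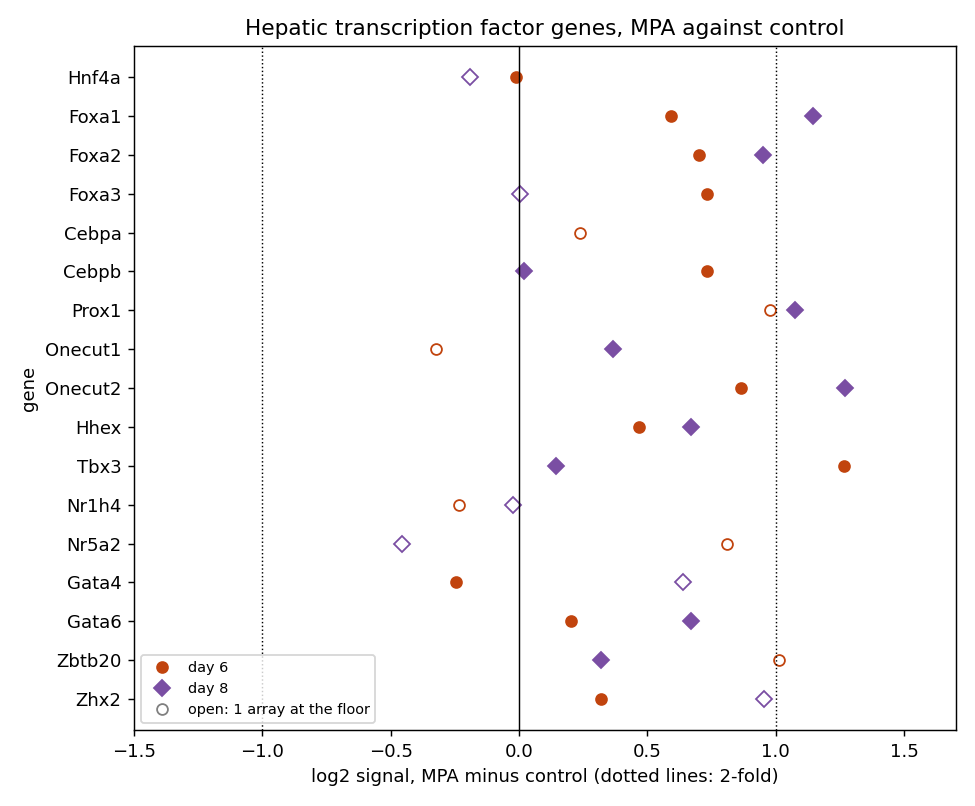
Log2 signal difference, MPA minus control, of 17 hepatic transcription factor genes at day 6 (circles) and day 8 (diamonds), with open symbols where 1 array was at the floor. Points lie mostly right of 0, with Tbx3 and Zbtb20 past the 2-fold line at day 6 and Foxa1, Onecut2 and Prox1 past it at day 8.

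Genes next to the members on the chromosome, which are also made in liver, gave a mixed picture. Apoc1, the neighbour of Apoe, read 529 and 22.6 with MPA at days 6 and 8, against 221, 83.2 and 90.9 in the controls at days 5, 6 and 8. It was at least 6.10-fold higher with MPA at day 6, while Apoe beside it was 1.03-fold apart. Apoa4, in the cluster of Apoa1, read 313 and 26.5 with MPA, against 15.9, 23.2 and 98.9 in the controls, at least 3.61-fold higher at day 6. Apoc3 and Apoa5 of that cluster read 51.0 and 81.7 with MPA at day 6, against 114 and 4.63 in the control of that day. Apoc2 and Apoc4, which lie beyond Apoc1 in the Apoe cluster, read 85.6 and 13.5 with MPA at day 6, against 129 and 85.2 in the control of that day. Apoa5 and Apoc4 were under the floor on both of these arrays, so they have no measured difference. Apoc3 and Apoc2 exceeded the floor in that control only. Afm, of the albumin cluster, exceeded the floor only with MPA at day 8 (105), Fga only in the day 6 control (89.9), and Fgg on 0 arrays.

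Genes of lipoprotein assembly and uptake differed in both directions. Of 12 genes measured at day 6, 3 were 2-fold higher and 2 lower with MPA (median 0.04). At day 8 it was 1 and 1 of 10 (median -0.11). Of all measured genes, 4.02% were 2-fold higher and 3.15% lower at day 6, and 3.72% and 3.18% at day 8. The same shares apply to the 2-fold MPA counts of the lists that follow. Mttp, which loads lipid onto Apob, read 590 and 197 with MPA at days 6 and 8, against 165, 346 and 329 in the controls at days 5, 6 and 8, so that it was 1.705-fold higher at day 6 and 1.68-fold lower at day 8. Abca1, which exports cholesterol to Apoa1, was 1.75-fold and 2.94-fold higher. Vldlr, a receptor for Apoe-bearing particles, was 4.35-fold lower with MPA at day 6 (434 against 1887) and 1.93-fold higher at day 8 (1798 against 930).

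Among genes of retinol, thyroxine and iron handling, 0 of 10 were 2-fold higher and 1 was 2-fold lower with MPA at day 6 (median -0.12), and at day 8 0 and 1 of 7 (median -0.20). Tfrc, the transferrin receptor, was the one lower at day 6, by 2.075-fold (6404 against 13289), and Slc11a2, an iron importer, the one lower at day 8, by 2.53-fold. Rdh10, which oxidises retinol, exceeded its control by 1.84-fold at day 6 and 1.02-fold at day 8. Of 12 coagulation genes, 4 were above the floor on no array, where 21.1% of all genes were. At day 6, 0 of 5 measured were 2-fold higher and 1, F2 (prothrombin), at least 2.15-fold lower with MPA. At day 8 0 of 5 were 2-fold apart either way.

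Of 15 other secreted plasma protein genes, 8 were above the floor on no array (21.1% of all genes). Vtn, the gene of the adhesive plasma protein vitronectin, read 22.4 and 1728 with MPA at days 6 and 8, against 6.03, 73.2 and 519 in the controls at days 5, 6 and 8. It was 3.33-fold higher with MPA at day 8 and under the floor on all 3 arrays of days 5 and 6. Serpinf1 was 2.24-fold lower with MPA at day 8 (330 against 738). At day 6, 0 of 3 measured were 2-fold apart either way, and at day 8 Vtn and Serpinf1 were the 2 of 6 that were. Hepatocyte enzyme genes were above the floor on no array in 9 of 14 cases (21.1% of all genes). The exceptions with strong signals were Fah, of tyrosine breakdown, which was 7.12-fold lower at day 8 than at day 5 in the controls, and Arg1, of the urea cycle, which read 312 and 8733 with MPA at days 6 and 8, against 329, 611 and 2917 in the controls at days 5, 6 and 8. Arg1 is also made outside the liver.

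Markers of other tissues that make these proteins were read beside them. All 20 extraembryonic endoderm genes exceeded the floor on some array, while 21.1% of all genes did so on none. With MPA at day 6, when Ttr stood highest, 1 of 18 measured was 2-fold higher and 2 were lower (median -0.04). At day 8 it was 2 and 2 of 18 (median 0.31). Their summed signal was 49520 and 60887 with MPA at days 6 and 8, against 24251, 44895 and 41868 in the controls at days 5, 6 and 8. Bright genes weigh most in this sum, such as Sparc (13996 with MPA at day 8), Lamb1 (13776) and Col4a1 (10700). Of the defining visceral endoderm genes, Amn exceeded the floor only in the day 6 control (124), and Cubn there (91.2) and with MPA at day 8 (124). Lrp2, the receptor that works with them in uptake, read 286 and 257 with MPA, against 1440.1, 673 and 375 in the controls at days 5, 6 and 8. Dab2, an endocytic adaptor, read 269 and 914 with MPA, against 98.1, 214 and 768 in the controls, and Gata6, a factor of primitive endoderm, 3447 and 4282, against 1626, 2993 and 2692. Lrp2 was thus lower and Dab2 and Gata6 higher with MPA at both days. Of the 20 genes, 12 lay above the floor on all 5 arrays, where 49.97% of all genes did. Sox17, shared by visceral and definitive endoderm, was 2.23-fold higher with MPA at day 6 and 3.20-fold lower at day 8. Definitive endoderm genes had 2 at least 2-fold higher and 1 lower of 15 at day 6 (median 0.40), and 2 and 2 of 13 at day 8 (median 0.56). Their sums were 41963 and 40071 with MPA, against 45665, 31201 and 23631 in the controls at days 5, 6 and 8. The sum was higher with MPA at both days, but bright genes weigh most in it, such as Cdh1 (13635 against 7607 at day 8) and Foxa1 (9593 against 4339). At day 8, 9 of the 13 were higher with MPA by any amount and 4 lower. Among the lower ones was Cxcr4, by at least 5.27-fold (70.7 against 457).

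Gut epithelium markers had 1 of 5 and 2 of 7 at least 2-fold higher with MPA at days 6 and 8, and 0 lower (medians 0.53 and 0.36). Their sum was 1431 and 2310 with MPA, against 808, 969 and 1259 in the controls at days 5, 6 and 8, the order kept in the sums that follow. Pancreatic progenitor markers had 0 of 5 and 2 of 8 higher and 0 lower (medians 0.53 and 0.27), with sums of 2211 and 1911 with MPA, against 719, 2082 and 1285 in the controls, and Pdx1, their defining gene, exceeded the floor only with MPA at day 8 (90.4). Neural markers, read because choroid plexus makes Ttr and glia make Apoe, had 5 of 8 and 7 of 10 at least 2-fold lower and 0 higher (medians -1.25 and -2.02), with sums of 1328 and 2803 with MPA, against 2654, 2514 and 13252 in the controls. The neural sum was thus lower with MPA at both days, and the gap was widest at day 8. Mesenchyme markers had 1 of 10 higher and 1 lower at day 6 and 2 and 1 at day 8 (medians -0.11 and -0.16), with sums of 5173 and 13812 with MPA, against 2026, 4868 and 13519 in the controls. Macrophage markers had 0 of 3 and 1 of 2 higher (medians 0.34 and 0.68), with sums of 590 and 743 with MPA, against 435, 255 and 322 in the controls. These sums include signals under the floor, since 7 of the 10 genes were above it on no array, and Csf1r alone gave 321 of the 743. The part of any of these cell types in the Ttr and Rbp4 differences was not tested.

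The genes most like Ttr over the 5 arrays were sought by the root mean square distance between log2 profiles, each centred on its own mean, among 14355 genes above the floor on some array. They were Dleu7 (distance 0.55), Scube3 (0.61), Zfp503 (0.64), Irak2 (0.71) and Npnt (0.73). Dleu7, the nearest, read 1496 and 980 with MPA at days 6 and 8, against 51.2, 408 and 520 in the controls at days 5, 6 and 8. Like Ttr, Dleu7 and Npnt were highest with MPA at day 6, while Scube3 and Irak2 were highest with MPA at day 8 (2432 and 1090) and Zfp503 in the day 8 control (3947). None of the 5 is on the gene lists used here. For the mean profile of the 8 members ever above the floor, the nearest genes were Sf3b3 (0.02), Slc25a32 (0.04), Ywhag (0.04), Macroh2a2 (0.05) and L3hypdh (0.05). Sf3b3 read 2490 and 1810 with MPA at days 6 and 8, against 1425, 1662 and 1768 in the controls at days 5, 6 and 8. All 5 were highest with MPA at day 6, which follows from their choice by distance to that mean. The mean joins unlike courses, such as the rise of Ttr and the fall of Apoe in the controls, and does not describe each member.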

How the data were processed

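The deposited file holds a linear intensity for every probe set on each array. Per the submitters' processing notes it was made with MAS5, of unstated version and settings. Per the labels' protocols, biotinylated cRNA was prepared from 100 ng of total RNA. The values have a 2% trimmed mean of 500 on each array. Of 45101 probe sets, 64 were controls, 34945 had 1 gene symbol, 932 several and 9160 none here. Groups came from the labels.

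From these values, log2 differences were taken above the floor, the 50th percentile of signal. The limma fit (limma 3.58.1, R 4.3.3, lmFit and eBayes with trend and robust, Benjamini-Hochberg adjustment) kept genes that exceeded the floor on 2 or more of the 4 arrays of days 6 and 8. Tested on simulated data for 11599 genes, it called 38.5%, 95.9% and 100% of genes changed by a log2 of 1, 2 and 3, and 20 of 11399 unchanged genes, with changes alike at both days. The simulated noise was normal, with a common spread for genes of like signal and no flooring. These shares therefore need not hold for the real arrays, where spreads differ from gene to gene. Python 3.11.15 with pandas 2.3.3 and numpy 2.4.6 did the rest.

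The members, the 13 lists (175 genes, 163 on the array) and the tests were chosen with earlier results of these data known. Named genes were the members, from each list up to 4 genes that differed most with MPA (mean of both days) and up to 4 that differed most between control days 8 and 5, list genes beside a member on the chromosome, and the 5 nearest profiles. Hnf4a, Tbx3, Zbtb20, Cebpa, Foxa3, Gata4, Zhx2, Nr1h4, Nr5a2, Amn, Cubn, Lrp2, Gata6, Sparc, Lamb1, Col4a1, Cdh1 and Pdx1 lie outside this rule. They were picked after their values were seen. Alternatives covered scaling, the floor, the probe set rule and the fit.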

Additional observations from a re-analysis of the deposited data

Results flagged for a closer look

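Ttr drew attention because its day 6 to day 8 difference ran opposite ways in the 2 courses: the log2 difference of day 8 minus day 6 was -0.47 with MPA and 1.85 in the controls. Rbp4 did so because its log2 MPA minus control difference was 1.59 at day 6 and -0.07 at day 8. Apoa2, close to the floor, went opposite ways in both respects, with MPA differences of 0.38 at day 6 and -0.21 at day 8, and day 8 minus day 6 differences of -0.38 with MPA and 0.21 in the controls. Each rests on 1 array per group, and the difference between the effects was not tested.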

How the results depend on the processing

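The limma fit pairs MPA and control arrays by day. No paired analysis was possible by replicate number because each group has 1 array. Ttr and Rbp4 kept their direction with MPA at day 6 under every alternative that gave a value, with log2 differences from 2.54 to 2.89 and from 1.24 to 1.59. Apoe at day 8 against day 5 ran from -2.30 to -2.12. Ttr has no value without suffixed probe sets. Its limma adjusted p ran from 0.717 to 1, that of Rbp4 from 0.800 to 1, and 0 members passed under any alternative.

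The number of genes passing the limma test was 0 with a straight line for day, without the day term, with eBayes without trend and robust, without the filter, with quantile normalization and with probe set means, where 517, 209, 700, 71, 687 and 656 genes had an unadjusted p under 0.05. With a floor at the 25th percentile, medians were 0.78 (reversed) for control day 6 against 5, 1.155 for day 8 against 5 and -1.295 with MPA for day 8 against 6. Members 2-fold higher and lower were then 4 and 1, 4 and 2, and 1 and 4, with 4 lower for control day 8 against 6 and 1 lower for MPA at day 6. A floor at the 65th percentile gave medians of 0.20 (reversed) for MPA at day 8, 1.85 for control day 8 against 6 and 1.43 for day 8 against 5, 0 members higher for day 6 against 5, 1 lower for day 8 against 6 and 1 lower with MPA for day 8 against 6. Median centring gave 1 lower for the last, and log2(signal + floor) 2 lower for control day 8 against 5. Probe set means gave 1 higher for day 6 against 5, and 1 lower for day 8 against 6 in the controls and 1 with MPA. Without suffixed probe sets, which drops Ttr, Apoe, Apoa1 and Apoa2, the MPA median for day 8 against 6 was 0.067 (reversed), with 1 lower, and 1 member was higher for MPA at day 6 and for each control comparison, 1 lower for control day 8 against 6 and 0 lower for day 8 against 5. Gene counts over the whole array moved with the floor and with probe set means, at day 6 with MPA from 284 to 2264 higher and 195 to 2420 lower (492 and 385 as reported; 390 and 472 with median centring), at day 8 from 274 to 2355 and 182 to 2419 (469 and 401). In the controls they ran from 410 to 2731 and 342 to 2554 for day 6 against 5 (689 and 555), 527 to 3005 and 536 to 2770 for day 8 against 6 (907 and 825), 724 to 3355 and 643 to 2870 for day 8 against 5 (1228 and 929), and with MPA from 578 to 2903 and 585 to 2717 for day 8 against 6 (936 and 936). The count for day 8 against day 6 over MPA and control was 71 without trend and robust, 0 without the filter (498 at an unadjusted p under 0.05), 335 with quantile normalization, 15 with probe set means and 393 without suffixed probe sets (670 as reported). Signals near the floor limit Alb, Afp, Apoa1, Apoa2, Apob and Fgb.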
